A study of Arabidopsis thaliana with 12 samples.

Results

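CBL and APS4 are 2 genes of the route that carries sulphur from sulphate to methionine in Arabidopsis thaliana, and each had 1 probe on an expression array of 3439 probes. CBL (AT3G57050) codes for cystathionine beta-lyase and APS4 (AT5G43780) for an ATP sulfurylase. They were chosen because their transcripts were among the larger increases at high iron in an earlier reading of these same samples, so their difference between the groups is described here without a test. The probes were taken where the platform annotation gave exactly 1 gene, which held for 692 of the 3439 probes, and the 2 probes were matched by gene number and not by symbol, since the name CBL is also used for calcium sensor proteins.

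The samples were total RNA of wild-type plants of the ecotype Columbia 0. There were 6 control samples from plants at normal iron and 6 samples from plants at high iron, the condition the labels describe as oxidative stress. Both groups share the same ecotype, and the labels name no mutation or transgene. The sources used here do not state tissue, age, iron compound, dose, duration or whether the numbered samples came from separate plants, so any spread quoted is that between these samples and may be technical.

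Plants take up sulphate and activate it with ATP sulfurylase, which joins it to adenosine phosphate. The activated sulphate is reduced to sulphide in plastids and built into cysteine. Cystathionine gamma-synthase then joins cysteine to an activated homoserine from the aspartate family of amino acids, and cystathionine beta-lyase, a pyridoxal phosphate enzyme of plastids, cleaves the product to homocysteine, from which methionine is made. Methionine gives S-adenosylmethionine, the precursor of ethylene and of nicotianamine, a chelator that moves iron inside the plant. APS4 thus stands at the entry of the route and CBL near its end.

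The deposited values were linear intensities between 0 and 100. The column medians ranged from 0.555 to 0.618 in control samples and from 0.352 to 0.446 in high iron samples. Between 123 and 145 values were 0 in control columns and between 123 and 278 in high iron columns, with high iron samples 3 and 4 holding the most, 278 and 271. Values below are log2 of quantile-normalized intensity, a scaling that gives all 12 arrays the same distribution, unless another scale is named. Total RNA was measured, so more transcript per cell and more cells with the transcript cannot be told apart.

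The transcript of CBL was higher at high iron in all 6 pairs of samples with the same number. Nothing is read from this count, as CBL was chosen for its increase and the pairs fall into the sets of samples described below. The deposited intensity of CBL in control samples was lowest at 0.202, with a median of 0.234 and a highest value of 0.318. In high iron samples the lowest was 0.275, the median 0.320 and the highest 0.599. As deposited, the groups overlapped, because control sample 4 (0.318) lay above high iron samples 1, 2 and 5 in the range from 0.275 to 0.316.

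After quantile normalization CBL stood at -2.41 ± 0.30 on the log2 scale in control samples and at -1.19 ± 0.55 in high iron samples (SD, n = 6 each). The lowest control value was -2.70, the median -2.47 and the highest -1.87. The lowest high iron value was -1.73, the median -1.44 and the highest -0.44. The groups did not overlap, with 0.14 log2 units between the highest control and the lowest high iron sample. The difference was 1.22 (SE 0.24 over 12 samples), a level 2.32 times that of the control. All 6 high iron values lay above all 6 control values for 9.77% of all probes, and as CBL was chosen on this contrast nothing is read from its place among them.

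The transcript of APS4 was also higher at high iron in all 6 pairs of samples with the same number, and its control samples lay close together. Again nothing is read from the count of pairs, for the same reasons. The deposited intensity of APS4 in control samples was lowest at 0.273, with a median of 0.291 and a highest value of 0.301. In high iron samples the lowest was 0.339, the median 0.421 and the highest 0.514. Unlike CBL, APS4 had no overlap between the groups as deposited, where 4.89% of all probes had all high iron values above all control values.

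After quantile normalization APS4 stood at -2.12 ± 0.17 in control samples and at -0.998 ± 0.32 in high iron samples (SD, n = 6 each). The control values ran from -2.39 through a median of -2.03 to -2.002, and the high iron values from -1.41 through a median of -0.92 to -0.62. The gap between the groups was wider than for CBL, 0.59 log2 units. The difference was 1.12 (SE 0.15 over 12 samples), a level 2.18 times that of the control. Among the 692 single-gene probes CBL had the increase of rank 5 and APS4 that of rank 10, and among all 3439 probes they had ranks 29 and 48. As both genes were chosen for their increase in these samples, high ranks follow from the choice and nothing is read from them.

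The position of a probe within its own array does not depend on how the arrays are scaled to each other. CBL lay at a mean percentile of 14.8 ± 4.43 in control arrays and 44.6 ± 19.9 in high iron arrays (SD, n = 6 each). Its control arrays placed it between 11.3 and 23.3, and its high iron arrays between 26.5 and 72.2. APS4 lay at a mean percentile of 18.5 ± 2.58 in control arrays and 51.3 ± 12.3 in high iron arrays. Its control arrays placed it between 14.5 and 20.4, and its high iron arrays between 35.8 and 65.9. On this scale both transcripts lay among the dimmer probes of the control arrays and nearer the middle of the high iron arrays, with no overlap between groups. Quantile normalization works from these same positions, so the lack of overlap repeats the result on that scale and is no separate support. There, 9.77% of all probes had all high iron values above all control values.

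**Figure D1:**
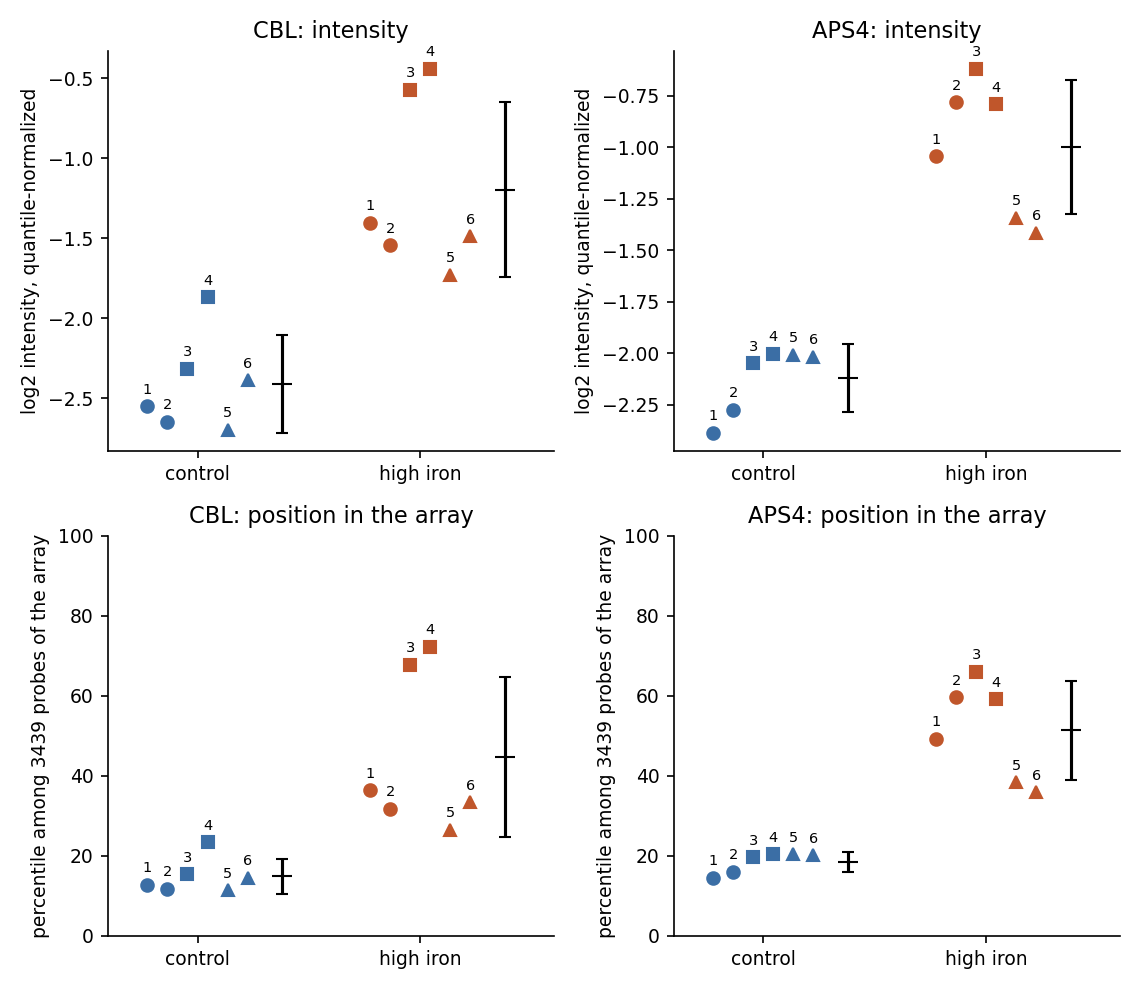
Upper panels show log2 quantile-normalized intensity and lower panels the percentile among the 3439 probes of the same array, for CBL on the left and APS4 on the right. Each point is 1 sample with its number, symbols mark the samples 1 and 2 (circles), 3 and 4 (squares) and 5 and 6 (triangles), and the bars give mean ± SD of 6 samples. All high iron points lie above all control points in the 4 panels, and high iron samples 3 and 4 are the highest for CBL.

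Within a group, samples 1 and 2 resembled each other, as did samples 3 and 4 and samples 5 and 6. Inside these 3 sets, correlations over probes of each sample's difference from its group mean lay between 0.56 and 0.82, while between sets of a group they lay between -0.70 and -0.25. Taking the difference from the group mean by itself pushes correlations between sets towards negative values, so their sign is not read as a result. The meaning of the sample numbers is not stated in the labels. Counting each set once leaves 3 values per group, and the SE over the 6 averages of the sets is 0.34 for CBL and 0.22 for APS4.

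The size of the difference varied between the sets in another way for each gene. CBL differed by 1.13 in samples 1 and 2, by 1.59 in samples 3 and 4 and by 0.93 in samples 5 and 6. High iron samples 3 and 4 stood apart, at -0.57 and -0.44, while the other 4 high iron samples lay between -1.73 and -1.40. Control sample 4 was the highest control for CBL, at -1.87, and differed by 0.45 from control sample 3, the widest gap inside a set for this gene. In a fit chosen after the data were seen, high iron samples 3 and 4, which also held the most zeros, were left out. The difference of CBL was then 0.87, with a SE of 0.16 over the other 10 samples. That fit kept control samples 3 and 4. Without samples 3 and 4 of both groups the difference was 1.03, with a SE of 0.095.

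APS4 differed by 1.42 in samples 1 and 2, by 1.32 in samples 3 and 4 and by 0.63 in samples 5 and 6. Here high iron samples 5 and 6 were the lowest, at -1.34 and -1.41, against values from -1.04 to -0.62 in the other 4. Control samples 1 and 2 were the lowest controls, at -2.39 and -2.27, and the other 4 controls lay between -2.05 and -2.002. Without high iron samples 3 and 4 the difference of APS4 was 0.98. It was 1.03 without samples 3 and 4 of both groups, and 1.37 without samples 5 and 6 of both groups. In samples 1 and 2 APS4 had the greater difference of the 2 genes, and in samples 3 and 4 and in samples 5 and 6 CBL had it.

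The scaling of the arrays set how large both differences were, but not their direction. With median scaling CBL stood at 1.14 and APS4 at 1.07, again with no overlap between groups, as for 16.7% of all probes. With the values as deposited CBL stood at 0.62 and APS4 at 0.55, on a scale where the median change of all probes was -0.40. Relative to that median they stood at 1.02 and 0.95. Probes of like brightness stood lower still on the deposited scale, with a median change of -0.67 over the 344 probes in the brightness class of CBL and -0.63 over the 344 of the class of APS4, where the probes were parted by mean intensity into 10 classes of like size.

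As deposited, the set with the smallest difference changed for CBL, which differed by 0.33 in samples 1 and 2, by 1.06 in samples 3 and 4 and by 0.46 in samples 5 and 6. For APS4 the deposited differences were 0.67, 0.73 and 0.24 in the same order. In both genes samples 3 and 4 had the greatest deposited difference, and samples 5 and 6 had the smallest for APS4 under each of the 3 scalings.

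**Figure D2:**
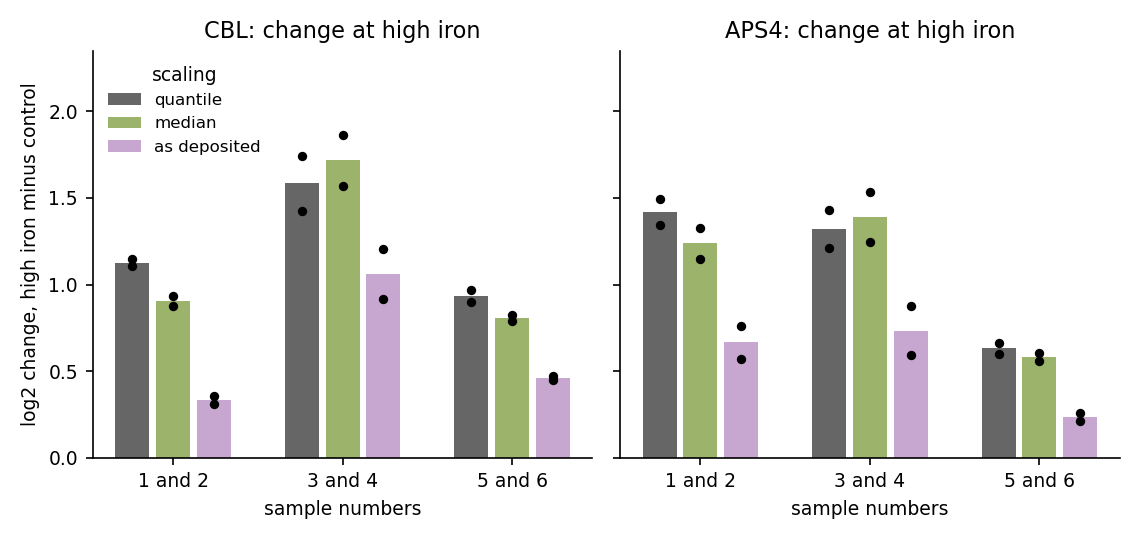
Bars give the log2 difference of high iron minus control for CBL (left) and APS4 (right) in samples 1 and 2, 3 and 4, and 5 and 6, under quantile normalization, median scaling and as deposited, and points give the difference for each sample number. All bars lie above 0, from 0.24 for APS4 in samples 5 and 6 as deposited to 1.72 for CBL in samples 3 and 4 after median scaling.

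Probes with neighbouring numbers were also examined. The 50 probes nearest in number to that of APS4 had a median change of 0.24, and the 4 nearest ranged from -0.02 to 0.90. With a running median over 51 neighbouring probes removed from each array, the difference of APS4 was 0.77. For CBL the 50 nearest had a median change of 0.08, the 4 nearest ranged from -0.36 to 0.68, and the difference with the running median removed was 1.21. The layout of the array was not used here.

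Apart from CBL and APS4, no gene listed for the route from sulphate to methionine had a probe of its own. The 16 lists of genes for sulphate uptake, activation, cysteine, methionine, S-adenosylmethionine, glutathione, glucosinolates, other amino acids, iron and tissue markers held 209 genes, of which 7 had a probe of their own, CBL and APS4 included. None of the sulphate transporters, of the sulphur-deficiency markers, of the genes of cysteine synthesis, of S-adenosylmethionine and nicotianamine synthesis or of iron uptake and storage had one, so they were not analysed here. The annotation gave the other 3 ATP sulfurylase genes no probe, alone or shared. Another 8 list genes were only on probes of several genes, which were not used. Of 2 leaf, 4 root and 3 seed marker genes, 0 had a probe of their own, so the tissue could not be checked.

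The 5 other measured genes belong to amino acid synthesis in plastids, 1 to the aspartate family that also feeds methionine and 4 to other amino acids. Over 12 samples 1 rose, 2 fell and 2 did not pass in limma at an adjusted p of 0.05, against 33.4% of all probes passing, 18.2% higher and 15.2% lower. Their median change was -0.34, against 0.00 over all probes. Over the 6 averages 1 of the 5 passed, a fall, against 2.38% of all probes in either direction and 1.08% lower. Their roles below are background for genes that the supplied annotation mostly gives by locus only.

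AT3G53580, listed as the diaminopimelate epimerase of lysine synthesis from aspartate, fell at high iron. Its log2 values in control samples ran from -2.81 through a median of -2.68 to -2.45, and in high iron samples from -3.24, the floor for low values, through -3.23 to -2.99. All high iron samples lay below all control samples, as for 8.32% of all probes, and 3 of the 6 high iron values were at the floor. The change was -0.49 (SE 0.07, limma adjusted p = 0.000299 over 12 samples and 0.0314 over the 6 averages). The adjusted p was 0.0517 when the sets entered as a random block and 0.0730 when the replicate block was fitted over the averages. Without a floor the change was -1.48 and did not pass (adjusted p = 0.145), and the running median over neighbouring probes also ended the call (0.0572).

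AT-HF (AT4G26900), a bifunctional enzyme of histidine synthesis also called HISN4, fell by 0.71 on the log2 scale (SE 0.20, limma adjusted p = 0.0186 over 12 samples). Its control values ran from -1.83 through a median of -1.54 to -1.05, and its high iron values from -2.65 through -2.30 to -1.60. The groups overlapped on this scale, since high iron sample 3 lay above 2 of the control samples. As deposited the control values of AT-HF ran from 0.322 to 0.557 and its high iron values from 0.129 to 0.198. The change was then -1.37 (limma adjusted p = 2.82e-05), where the median change of all probes was -0.40 and 1892 of 3439 probes passed. With median scaling it was -0.84 (limma adjusted p = 0.0018), where 37.4% of all probes passed. The call ended over the 6 averages (adjusted p = 0.186), with sets as a random block (0.151), in the fit with a replicate block (0.0502) and without samples 5 and 6 of both groups, where it stood at -0.39 (0.225).

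AT3G58610, listed as the ketol-acid reductoisomerase of branched-chain amino acid synthesis, rose by 0.40 (SE 0.13, limma adjusted p = 0.0340 over 12 samples). Its control values ran from -2.24 through a median of -1.82 to -1.53 and its high iron values from -1.62 through -1.48 to -1.27, with overlap. The call ended over the 6 averages (adjusted p = 0.243), in the fit with a replicate block (0.0562) and after median scaling (0.104). As deposited it had the other sign, at -0.24. Leaving out 1 sample ended its call in 6 of 12 fits, with changes from 0.32 to 0.46, and without samples 3 and 4 of both groups it stood at 0.19 (adjusted p = 0.324).

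The remaining 2 list genes did not pass over 12 samples. AT3G23940, listed as the dihydroxy-acid dehydratase of branched-chain amino acid synthesis, had a change of 0.10 (SE 0.13) and a value of -0.09 as deposited, but passed at 0.44 after median scaling (limma adjusted p = 0.0216), where 37.4% of all probes passed. AT5G10920, listed as the argininosuccinate lyase of arginine synthesis, had a change of -0.34 (SE 0.28) and passed in the fit with a replicate block (limma adjusted p = 0.0244), but not when that block was fitted over the 6 averages (0.204). After median scaling AT5G10920 stood at -0.083, with 0.38 in samples 3 and 4 and negative values in the other sets, and as deposited it stood at -0.61.

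**Figure D3:**
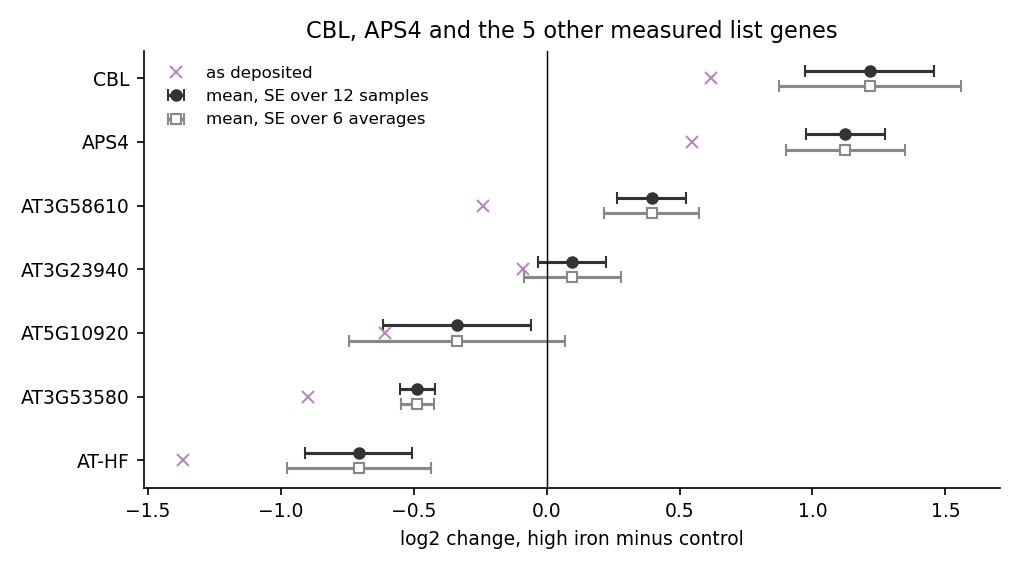
Points give the log2 change of high iron minus control after quantile normalization for CBL, APS4 and the 5 other list genes with a probe of their own, with SE bars over 12 samples (filled) and over 6 averages (open), and crosses give the change with values as deposited. CBL and APS4 lie at 1.22 and 1.12, AT-HF and AT3G53580 at -0.71 and -0.49, and AT3G58610 and AT3G23940 change side as deposited.

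SIRB and AT5G43770 were added after the annotation was seen. SIRB is the sirohydrochlorin ferrochelatase, which inserts the iron of sirohaem, the cofactor of sulphite reductase, and thus joins iron to the sulphur route. Its control values ran from -1.80 through a median of -1.18 to -0.53 and its high iron values from -1.49 through -1.23 to -0.56, and the groups overlapped over most of their range. Its change was 0.06 (SE 0.26, limma adjusted p = 0.909). AT5G43770 is the gene next to APS4, and the gene table of assembly TAIR10.1 has their transcribed spans share 74 bases. Over 12 samples AT5G43770 moved the other way from APS4, with a change of -0.36 (SE 0.11, limma adjusted p = 0.0266). It differed by -0.56 in samples 1 and 2 and by -0.52 in samples 3 and 4. In samples 5 and 6 it differed by only -0.0004, where APS4 rose by 0.63. As deposited AT5G43770 differed by -0.35 in samples 5 and 6, on a scale where the median change of all probes was -0.40. Its call held after median scaling (change -0.36, limma adjusted p = 0.0232) and as deposited (change -0.88, limma adjusted p = 0.000327). Its call ended over the 6 averages (limma adjusted p = 0.248), with sets as a random block (0.223) and with a replicate block (0.0691). The call also ended with the running median removed (0.0782) and in 4 of 12 fits that left out 1 sample. It ended too without samples 1 and 2 of both groups (0.220) and without samples 3 and 4 (0.203).

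The genes with the most similar pattern were found by Pearson correlation with each member over the 12 quantile-normalized log2 values, among the other 691 single-gene probes. The value is a description, since both the difference between the groups and the sets of samples enter it. For CBL the 5 highest were AT1G78620 (0.96), AT1G76220 (0.95), AT2G13690 (0.94), AT3G57630 (0.94) and AT4G27250 (0.93). Their deviations from the group means correlated with those of CBL between 0.76 and 0.87. Their changes ranged from 0.76 for AT4G27250 to 1.17 for AT1G76220.

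For APS4 the 5 highest were AT4G29890 (0.98), AT2G28660 (0.97), CSLA01 (0.97), SBPASE (0.96) and AT4G22490 (0.95). CSLA01 codes for a cellulose synthase-like protein and SBPASE for the sedoheptulose-bisphosphatase of the Calvin cycle. Deviations from the group means correlated with those of APS4 between 0.67 and 0.87, the highest for SBPASE. Changes ranged from 0.48 for SBPASE to 1.83 for CSLA01, so probes with like patterns differed in size. The 2 sets of 5 genes shared no gene.

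CBL and APS4 correlated with each other at 0.91 over the 12 samples and at 0.65 for deviations from the group means. In this order APS4 was rank 11 for CBL and CBL was rank 20 for APS4.

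**Figure D4:**
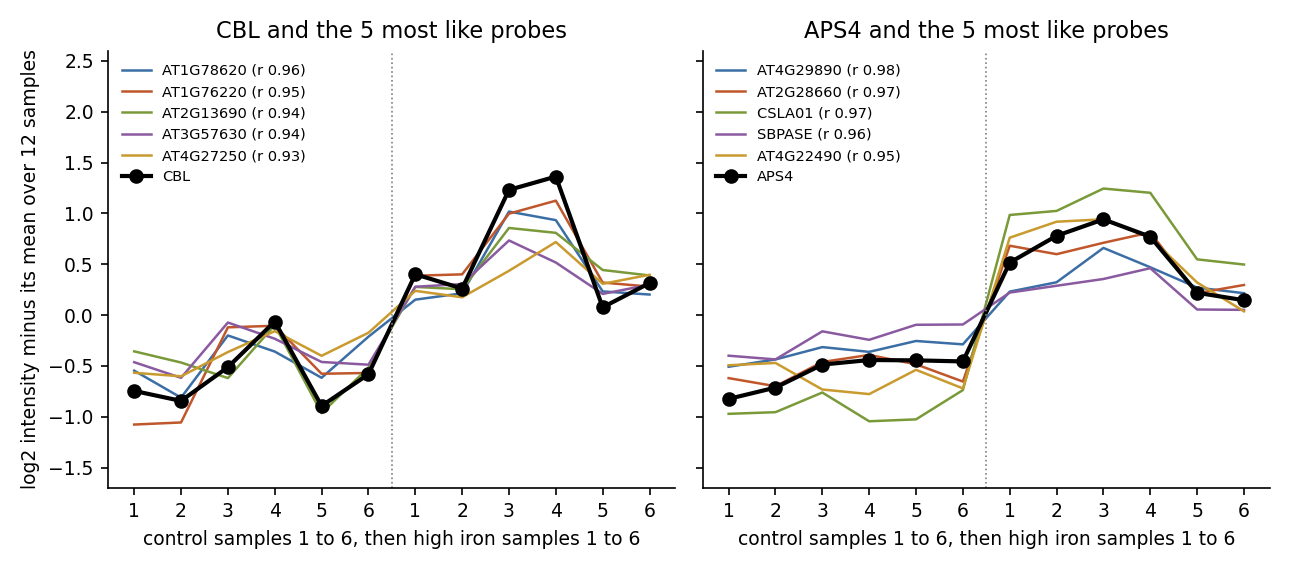
Lines give the log2 intensity of each probe minus its own mean over the 12 samples, for CBL (left, black) and APS4 (right, black) with the 5 single-gene probes most correlated with each, and the dotted line parts control from high iron samples. The CBL lines peak in high iron samples 3 and 4, and the APS4 lines are lowest in high iron samples 5 and 6 among the high iron samples.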

How the data were processed

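The authors deposited 1 linear intensity per probe and array. The sources used here do not state scanner, background correction or scaling, so scale and centring stay unknown and the direction of a change is that of the labelled groups. Groups came from the source names and replicate numbers from the titles. Members, lists and alternatives were chosen with earlier results of these data known. Probes were named where the platform annotation, which can be old, gave 1 gene (692 of 3439, with 870 of several genes and 1877 of none), and symbols were updated with a table of assembly TAIR10.1 for 690 of them. No positions are given, because no build is named for the array.

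Because the column medians differed by up to 1.76 times, arrays were quantile normalized, floored at the 5th percentile of positive values (0.106, or -3.24 on the log2 scale) and log2-transformed. The floor makes the changes of dim probes smaller, and 145 probes lay on it in all 12 arrays. Changes were fitted two-sided for all probes with limma 3.58.1 (R 4.3.3; lmFit, then eBayes with trend), adjusted by Benjamini-Hochberg, at a threshold of 0.05. The random block used statmod 1.5.0 (correlation 0.774). Across the groups, same-numbered samples had correlated deviations over probes (r of 0.52, 0.51, 0.21, 0.13, 0.52 and 0.51, in the order of the numbers). All 12 samples had their best match in the other group at the same number, but the correlation was weak for numbers 3 and 4. The labels do not state a pairing by number, and it was not tested beyond this match. Named genes were CBL, APS4, every list gene with a probe of its own, the 5 probes most correlated with each member, and 2 genes added later. The number of arrays limits the precision.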

Additional observations from a re-analysis of the deposited data

How the results depend on the processing

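CBL and APS4 stayed higher at high iron under all 27 alternatives that gave APS4 a value and the 26 that gave CBL one. CBL is among the dimmest 25 percent of probes and has no value in the fit without them. As both genes were chosen for their increase in these samples, a direction that is kept is no separate support. The averages, the blocks and the fit without a floor left the differences at 1.22 and 1.12 and could not change them. With values as deposited CBL stood at 0.62 and APS4 at 0.55, and with the running median removed APS4 stood at 0.77. With 1 sample left out in turn CBL ranged from 1.06 to 1.32 and APS4 from 1.05 to 1.21. The replicate block leaves both differences as they are, because the groups are balanced, but changes their SE. With it the SE over 12 samples was 0.12 for CBL and 0.15 for APS4, against 0.24 and 0.15 without a block. With the block over the 6 averages it was 0.17 for CBL and 0.22 for APS4.

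The count of probes passing, 1149 over 12 samples, was 1392 under a replicate block, 1892 as deposited, 491 with sets as a random block, 82 over the 6 averages and 1 with the replicate block over the averages. The share of higher calls was 54.4%, against 66.1% after median scaling and 15.4% as deposited. With 1 sample left out the count ranged from 1000 to 1172.

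Of the 5 list genes 3 passed over 12 samples, and 2 to 3 with 1 sample left out. The count was 1 without a floor, 1 without the dimmest probes (where 3 of the 5 were tested), 1 over the averages and 1 without samples 1 and 2 of both groups. In limma it was 0 with sets as a random block, where 2 had an unadjusted p under 0.05, and 0 with the replicate block over the averages, where 1 had. AT3G23940 changed sign as deposited (-0.088), with array weights (-0.12) and without samples 5 and 6 of both groups (-0.12), and AT3G58610 as deposited (-0.24). SIRB changed sign as deposited (-0.46), with the running median removed (-0.16), without samples 5 and 6 of both groups (-0.033) and in 4 of the 12 fits that left out 1 sample, which ranged from -0.067 to 0.19. The cause was not tested. The high iron values of AT3G53580 at the floor have only a bound, and 6 arrays per group in 3 sets limit every comparison.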
